A study of Mus musculus with 6 samples.

Results

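The genes described here mark the 2-cell-like state of mouse embryonic stem cells (ES cells). They were 10 named genes: Zscan4c, Zscan4d, Zscan4f, Tdpoz3, Tdpoz4, Usp17la, Zfp352, Tcstv1, Tcstv3 and Tmem92. Every probe set whose symbol field held one of them was used, and a set shared by several copies was counted once. This gave 10 of the 35556 probe sets on the array, for 9 of the 10 genes. Over the whole array, 19938 genes had a set of their own. Tcstv1 had no probe set of its own name and is not analysed here. Of the 10 sets, 5 carried 1 symbol (Tdpoz3, Usp17la, Zfp352, Tmem92 and Tcstv3) and 5 were shared between gene copies, so that the copies in them could not be told apart.

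The study knocked down Pcgf6 in V6.5, a mouse ES cell line, and measured total RNA on GeneChip Mouse Gene 1.0 ST arrays, which have 1 colour and 1 array per sample. All cells carried a short hairpin RNA that doxycycline (dox) switches on. The 6 arrays held 2 Pcgf6 hairpins with dox at 1 µg/ml (induced, n = 2), the same 2 hairpins without dox (uninduced, n = 2), a scrambled hairpin with dox (n = 1) and the scrambled hairpin without dox (n = 1). How long dox was applied, and whether each line was 1 clone, is not stated in the labels. Nor do they say whether any hairpin was grown in repeated independent cultures. The 2 arrays of a Pcgf6 group carry different hairpins, so their spread mixes differences of hairpin, line and technique. The p-values therefore reflect the spread among these arrays alone, and precision is limited by how few arrays there are. The ES cells grew on mitomycin-inactivated DR4 mouse embryo fibroblasts, and RNA of these feeder cells can be part of every sample. In bulk RNA, more cells in the 2-cell-like state and more RNA per such cell cannot be told apart.

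As background, the 2-cell-like state is a rare and passing state that a small share of cultured ES cells enters. These cells switch on genes that the mouse embryo otherwise transcribes at its first wave of genome activation, together with endogenous retroviruses of the MERVL family, and the transcription factor Dux can start the programme. Zscan4, a cluster of near-identical genes for proteins with a SCAN domain and zinc fingers, is the best known of them and acts in telomere lengthening and genome stability. Pcgf6 is a subunit of a Polycomb complex, PRC1.6, that contains Mga, Max, E2f6 and L3mbtl2 and represses germ-cell genes in ES cells.

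The knockdown itself was visible on the array. Pcgf6 had log2 levels of 9.39 and 9.27 in the induced hairpin 1 and hairpin 2 arrays, against 11.56 and 11.70 in the uninduced ones, and 11.82 with dox against 11.80 without dox under the scrambled hairpin. It fell by 2.30 on the log2 scale (SE 0.10, limma adjusted p = 0.0219), which is a 4.94-fold lower level. Pluripotency genes were bright on all arrays, with levels between 10.30 and 13.10. Of their 10 probe sets 0 passed the test, and their median log2 change was -0.08.

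In the induced array, 8 of the 10 sets lay more than 1.5-fold above the uninduced partner under hairpin 1, and 8 under hairpin 2. Of all probe sets, 1.94% and 2.81% did so. The Zscan4 copies differed most, by 5.20- to 5.41-fold, followed by Tdpoz3 with 3.32-fold, the Usp17l sets with 2.11- and 2.18-fold, Zfp352 with 1.82-fold, Tmem92 with 1.79-fold and Tdpoz4 with Tdpoz8 with 1.59-fold. Tcstv3 differed by 1.15-fold. By limma's moderated test with Benjamini-Hochberg adjustment over all 35556 probe sets, 4 of the 10 sets rose, the 3 of Zscan4 and that of Tdpoz3, and 0 fell. Of all probe sets, 0.104% rose and 0.00844% fell by the same rule. Over the 23410 sets that have a gene symbol, 7 of the 10 rose (Zscan4, Tdpoz3, both Usp17l sets and Zfp352), where 0.359% of all such sets rose. The 3 Zscan4 sets in these counts name the same copies. The genes were chosen with earlier results of these data known, so the counts beside these shares are a description and no independent evidence.

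These counts rest on all 4 hairpin arrays. With any 1 of the induced or uninduced arrays of hairpin 1 or hairpin 2 left out, 0 of the 10 sets passed over all probe sets, and the fit then had 1 residual degree of freedom. Among the sets with a symbol, 4 to 6 of the 10 passed in those same fits. With the hairpin line as a block, 0 of 10 passed over all probe sets and 8 of 10 among those with a symbol. After quantile normalization 3 of 10 passed over all sets, since the third Zscan4 set no longer did (limma adjusted p = 0.0656). With the level of a feeder-cell gene list as a covariate, 0 of 10 passed over either collection. The Zscan4 changes were then 2.42, 2.42 and 2.55 (limma adjusted p = 0.561, 0.583 and 0.596 over all sets, and 0.055 each among those with a symbol). That fit and the fit with the block also had 1 residual degree of freedom.

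The median log2 change over the 10 sets was 1.10, and over all probe sets it was -0.02. In all 10 sets both induced hairpin arrays lay above the other 4 arrays, a pattern that 9.1% of all probe sets showed. In Tcstv3 the margin was slight, with 4.96 and 4.97 in the induced hairpin arrays against 4.92 in the uninduced scrambled array. That margin is smaller than the standard error of its change (0.12), so its order of arrays says little.

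**Figure D1:**
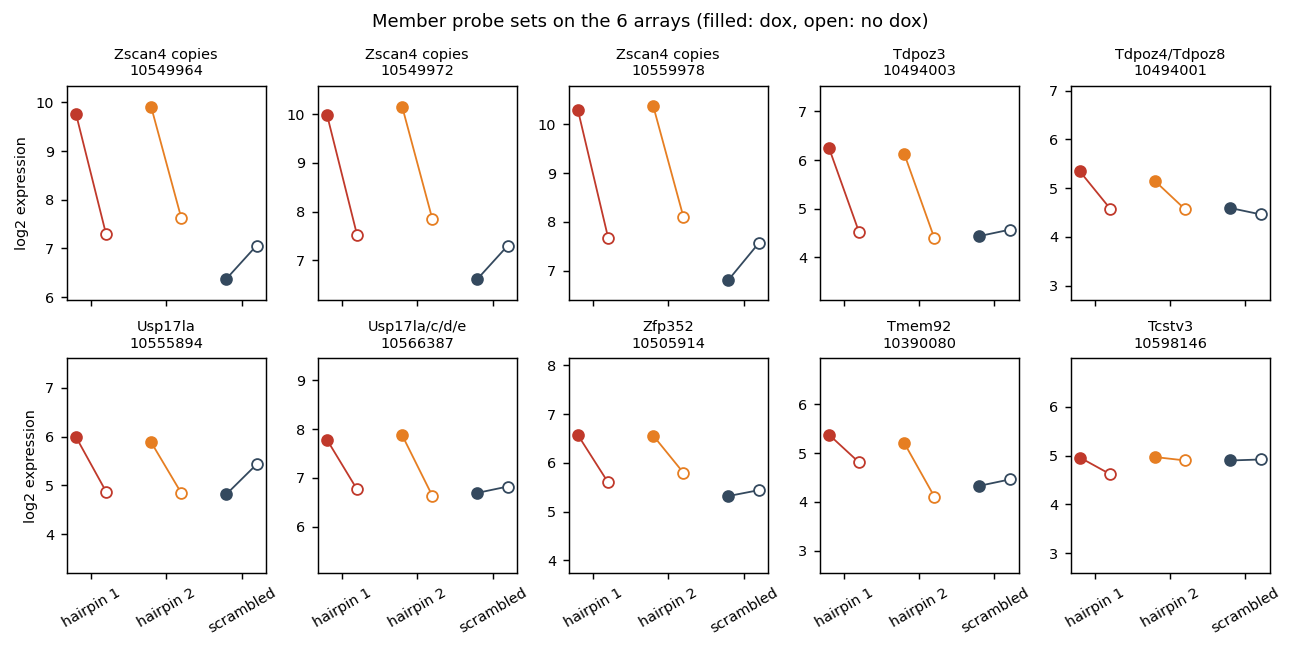
Log2 level (vertical axis) of each of the 10 probe sets on the 6 arrays, with dox to the left of no dox in each line and the scrambled hairpin last. By value, both induced Pcgf6 hairpin arrays lie above the other 4 arrays in every set, with the widest gap for Zscan4. The gap for Tcstv3 is slight, with 4.96 and 4.97 against 4.92 in the uninduced scrambled array.

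Zscan4a, Zscan4b, Zscan4c, Zscan4d and Zscan4f shared 3 probe sets, and each set named all 5 copies. The first had log2 levels of 9.76 and 9.90 in the induced hairpin 1 and 2 arrays, against 7.29 and 7.62 in the uninduced ones, and 6.38 with dox against 7.06 without dox under the scrambled hairpin. The second had 9.99 and 10.15 in the induced hairpin arrays, against 7.52 and 7.85 in the uninduced ones, and 6.62 with dox against 7.30 without dox under the scrambled hairpin. The third had 10.29 and 10.38 in the induced hairpin arrays, against 7.68 and 8.11 in the uninduced ones, and 6.81 with dox against 7.56 without dox under the scrambled hairpin. In each set the induced hairpin arrays stood more than 2 log2 units above all others, and the scrambled array with dox was the lowest of the 6.

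The change over both hairpins was 2.38 (SE 0.14, limma adjusted p = 0.0329), 2.39 (SE 0.15, limma adjusted p = 0.0332) and 2.44 (SE 0.17, limma adjusted p = 0.0391) on the log2 scale for the 3 sets. As a mean of the 3 sets, hairpin 1 gave 2.52 and hairpin 2 gave 2.28. Under the scrambled hairpin the mean change was -0.70, from -0.76 to -0.68. Among the changes of all 35556 sets, ordered from the highest, the Zscan4 sets stood at ranks 4, 5 and 6 under hairpin 1 and at ranks 7, 8 and 10 under hairpin 2. Because the sets name the same copies, they are not 3 independent observations.

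The promoters of the Zscan4 copies are shown because the array cannot separate the copies, and the windows let a reader see how alike they are. The windows run from 250 bases before to 50 bases after the annotated start and come from RefSeq for GRCm38.p6. Zscan4c lies at chr7:11005495-11005794 on the plus strand and Zscan4d at chr7:11166099-11166398 on the minus strand. Capitals mark the letters TATAAA, searched on both strands.
Zscan4c: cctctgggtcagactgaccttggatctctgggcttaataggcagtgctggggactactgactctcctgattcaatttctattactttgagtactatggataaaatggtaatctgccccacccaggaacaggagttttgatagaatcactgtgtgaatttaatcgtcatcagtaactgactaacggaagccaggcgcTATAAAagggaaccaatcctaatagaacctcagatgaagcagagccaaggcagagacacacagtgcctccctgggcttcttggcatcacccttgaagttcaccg
Zscan4d: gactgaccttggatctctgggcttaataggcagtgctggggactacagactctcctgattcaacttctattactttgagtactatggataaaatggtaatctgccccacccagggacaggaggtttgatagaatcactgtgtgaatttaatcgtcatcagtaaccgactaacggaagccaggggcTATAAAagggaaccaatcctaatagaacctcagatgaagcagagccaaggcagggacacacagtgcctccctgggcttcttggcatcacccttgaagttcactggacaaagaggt
The 2 windows aligned over 289 bases with 281 identical (97.2%). The windows of Zscan4c and Zscan4f were closer, with 275 of 277 aligned bases identical (99.3%). The TATAAA began at position -54 in Zscan4c and at -65 in Zscan4d, counted from -1 for the base just before the start. Zscan4f and Zscan4b held it too, while 13.62% of all 32851 RefSeq windows did.

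Tdpoz3 and Tdpoz4 belong to a family of genes for proteins with a TRAF domain and a POZ domain, relatives of the ubiquitin ligase adaptor Spop, and lie in a cluster on chromosome 3. Tdpoz3 had log2 levels of 6.25 and 6.13 in the induced hairpin 1 and 2 arrays, against 4.52 and 4.40 in the uninduced ones, and 4.44 with dox against 4.57 without dox under the scrambled hairpin. Its change of 1.73 (SE 0.10, limma adjusted p = 0.0297) was nearly equal under hairpin 1 (1.74) and hairpin 2 (1.73). All 4 other arrays lay below the lower quartile of their array, so Tdpoz3 was dim without the induced hairpin.

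The set shared by Tdpoz4 and Tdpoz8 had log2 levels of 5.34 and 5.14 in the induced hairpin arrays, against 4.58 and 4.56 in the uninduced ones, and 4.59 with dox against 4.46 without dox under the scrambled hairpin. It was 0.67 higher (SE 0.11), which did not pass (limma adjusted p = 0.294 over all sets and 0.07 among those with a symbol). With the hairpin line as a block it passed among the sets with a symbol (limma adjusted p = 0.0492) and not over all sets (limma adjusted p = 0.389). The set stayed below the lower quartile of all 6 arrays. It was the only member set whose scrambled array was higher with dox than without it.

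Usp17la belongs to a family of deubiquitinating enzymes, also known as DUBs, that remove ubiquitin from other proteins. Its own set had log2 levels of 5.99 and 5.88 in the induced hairpin 1 and 2 arrays, against 4.87 and 4.84 in the uninduced ones, and 4.82 with dox against 5.43 without dox under the scrambled hairpin. The set shared by Usp17la, Usp17lc, Usp17ld and Usp17le had 7.78 and 7.87 in the induced hairpin arrays, against 6.76 and 6.63 in the uninduced ones, and 6.69 with dox against 6.82 without dox under the scrambled hairpin. In both sets the induced hairpin arrays lay above the rest. The uninduced scrambled array was the highest of the other 4 in each. In the Usp17la set these other 4 arrays all lay below the lower quartile of their array.

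The change was 1.08 (SE 0.09) for the Usp17la set and 1.13 (SE 0.10) for the shared set. Neither passed over all probe sets (limma adjusted p = 0.0782 and 0.0844), and both passed among the sets with a symbol (limma adjusted p = 0.00522 and 0.00549). The uninduced hairpin arrays of the Usp17la set stood at -0.58 relative to the uninduced scrambled array (SE 0.11, limma adjusted p = 0.501).

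Zfp352, a zinc-finger gene of the early embryo, lies on chromosome 4. It had log2 levels of 6.57 and 6.56 in the induced hairpin 1 and 2 arrays, against 5.60 and 5.80 in the uninduced ones, and 5.32 with dox against 5.44 without dox under the scrambled hairpin. The change of 0.87 (SE 0.10) did not pass over all sets (limma adjusted p = 0.216) and passed among those with a symbol (limma adjusted p = 0.0263). The induced arrays were again the highest and the scrambled array with dox the lowest of the 6.

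The promoter windows of Usp17la and Zfp352, from the same RefSeq table and build, are shown because they lack the TATAAA that the Zscan4 windows share. Usp17la lies at chr7:104856766-104857065 and Zfp352 at chr4:90218570-90218869, both on the plus strand. Capitals mark the letters AGGTGT, a T-box half-site, on either strand, so they read ACACCT where the site is on the minus strand.
Usp17la: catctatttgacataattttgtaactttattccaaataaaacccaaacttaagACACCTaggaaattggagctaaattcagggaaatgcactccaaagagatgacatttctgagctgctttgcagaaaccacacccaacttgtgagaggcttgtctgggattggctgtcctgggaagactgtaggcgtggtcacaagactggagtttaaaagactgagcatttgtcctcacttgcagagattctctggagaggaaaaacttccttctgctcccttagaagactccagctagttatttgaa
Zfp352: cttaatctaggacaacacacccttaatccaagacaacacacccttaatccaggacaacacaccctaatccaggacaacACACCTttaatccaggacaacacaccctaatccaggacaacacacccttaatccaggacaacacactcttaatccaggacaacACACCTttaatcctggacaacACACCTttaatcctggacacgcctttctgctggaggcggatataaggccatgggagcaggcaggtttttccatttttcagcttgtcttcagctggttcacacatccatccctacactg
Usp17la held 1 such match and Zfp352 held 3, and 13.74% of all windows held at least 1. Neither window held TATAAA, although those of Usp17lb, Usp17lc and Usp17ld did. The windows of Usp17la and Usp17lc aligned over 257 bases with 245 identical (95.3%). A match of letters is a description of the window and not evidence of a factor's binding.

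Of the 10 genes, 6 had a window (Zscan4c, Zscan4d, Zscan4f, Tdpoz4, Usp17la and Zfp352). They held between 0 and 4 CpG dinucleotides each, with a median of 2.5, while the median of all windows was 7. The germ-cell gene list, whose promoters held 5 to 38 CpGs over 9 of its 10 genes, had a median of 20. Median GC content was 46.7% in the 6 windows, 59.7% in the germ-cell list and 52.7% in all windows. None of the 6 windows held CACGTG (an E-box, in 7.15% of all windows) or GCGGGAA (an E2F motif, in 4.6%), each searched on both strands. This says only that these letters are not in these windows.

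Tmem92 encodes a transmembrane protein that is used as a marker of the 2-cell-like state. Its log2 levels were 5.38 and 5.21 in the induced hairpin 1 and 2 arrays, against 4.81 and 4.11 in the uninduced ones, and 4.33 with dox against 4.46 without dox under the scrambled hairpin. The 2 uninduced hairpin arrays differed from each other by nearly as much as the change, which was 0.84 (SE 0.25, limma adjusted p = 0.617 over all sets and 0.351 among those with a symbol). Without the uninduced hairpin 2 array the change was 0.49, and without that of hairpin 1 it was 1.18. The set was below the lower quartile on all 6 arrays.

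Tcstv3, a gene of a group named for its variable expression at the 2-cell stage, had log2 levels of 4.96 and 4.97 in the induced hairpin arrays, against 4.62 and 4.90 in the uninduced ones, and 4.90 with dox against 4.92 without dox under the scrambled hairpin. Its change of 0.20 (SE 0.12, limma adjusted p = 0.797) was the smallest of the 10, with 0.34 under hairpin 1 and 0.07 under hairpin 2. Without the uninduced hairpin 1 array it was 0.06, and without that of hairpin 2 it was 0.35. It, too, was below the lower quartile on all 6 arrays.

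Each hairpin line was also read alone, as a difference of 2 arrays with no test. Under hairpin 1, 8 of the 10 sets were past 1.5-fold higher with dox, against 1.94% of all probe sets. The 2 that were not were Tmem92, with a log2 change of 0.58 just under the threshold, and Tcstv3. Under hairpin 2, 8 of the 10 were past it, against 2.81% of all probe sets, and the 2 that were not were the shared Tdpoz4 set, also at 0.58, and Tcstv3. Of all probe sets, 0.548% were past 1.5-fold under both hairpins. Past 2-fold higher were 6 of the 10 sets under hairpin 1 and 7 under hairpin 2. The Zscan4 sets, which name the same copies, are in both counts. The share of all probe sets past 2-fold is not given here.

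In the scrambled line most sets were lower with dox, several of them only slightly. With dox, 9 of the 10 sets were lower and 1 was higher, while the median change of all probe sets was -0.02. Outside Zscan4 and Usp17la the falls lay between -0.14 (the shared Usp17l set) and -0.03 (Tcstv3). None was past 1.5-fold higher, where 2.93% of all probe sets were, and 4 were past 1.5-fold lower, where 1.08% of all were: the 3 of Zscan4 and Usp17la at -0.61. The Usp17la set lay below the lower quartile on both scrambled arrays. In 5 sets, namely the 3 of Zscan4 (which name the same copies), Usp17la and Zfp352, the scrambled array with dox was the lowest of the 6. The same held in 16% of all probe sets. For Usp17la it was lowest only narrowly, at 4.82 against 4.87 and 4.84 in the uninduced hairpin arrays, while the uninduced scrambled array stood at 5.43. With 1 array on each side, the difference in the scrambled line has no replicate check. The median changes over the 10 sets were 1.06 under hairpin 1, 1.17 under hairpin 2 and -0.14 under the scrambled hairpin, beside 0.00, -0.04 and -0.02 over all probe sets.

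**Figure D2:**
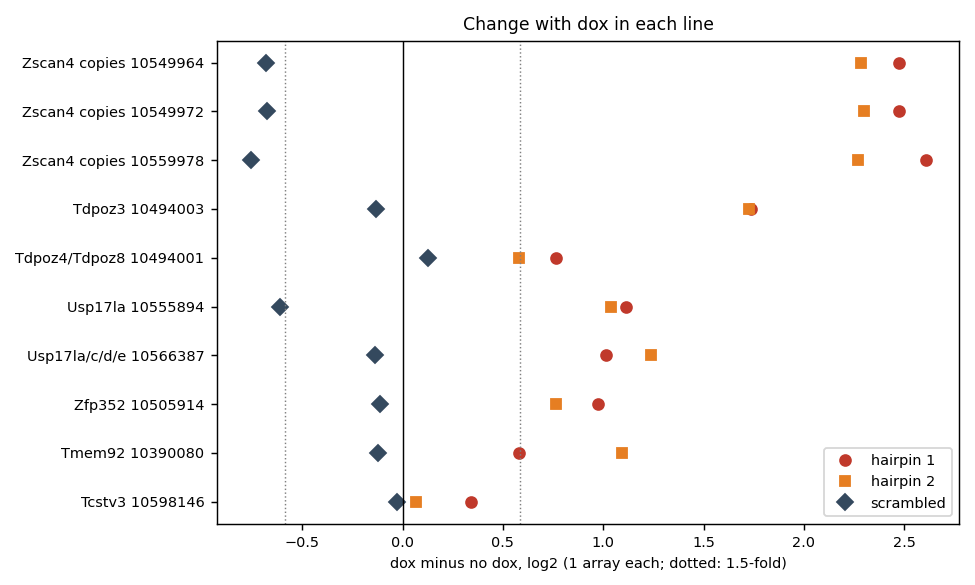
Log2 change, dox minus no dox, of each of the 10 probe sets in the hairpin 1, hairpin 2 and scrambled lines. The Zscan4 sets lie between 2.27 and 2.61 under the Pcgf6 hairpins and between -0.76 and -0.68 under the scrambled hairpin.

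The response of the Pcgf6 hairpins was then set against that of the scrambled hairpin in the same fit. The Zscan4 sets differed by 3.06, 3.06 and 3.19 on the log2 scale (limma adjusted p = 0.185, 0.185 and 0.203), Tdpoz3 by 1.87 and Usp17la by 1.69 (limma adjusted p = 0.211 for both). Over all probe sets 0 of the 10 passed, as did 0% of all sets by limma, although 8 of the 10 and 1851 of all sets had an unadjusted p under 0.05. Among the sets with a symbol, 5 of the 10 passed (the 3 of Zscan4, Tdpoz3 and Usp17la), where 0.158% of all such sets passed as higher. Their limma adjusted p there lay between 0.0125 and 0.0199. The part of these differences that comes from the fall in the scrambled line rests on 1 pair of arrays.

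Before induction, 0 of the 10 sets passed the test of uninduced hairpins against uninduced scrambled, as did 0% of all sets by limma, with 2492 of all sets and 1 of the 10 at an unadjusted p under 0.05. The Zscan4 sets were 0.34 to 0.40 higher in the uninduced hairpin arrays than in the uninduced scrambled array (limma adjusted p between 0.759 and 0.839). This does not show that the lines began alike, since it rests on 3 arrays.

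**Figure D3:**
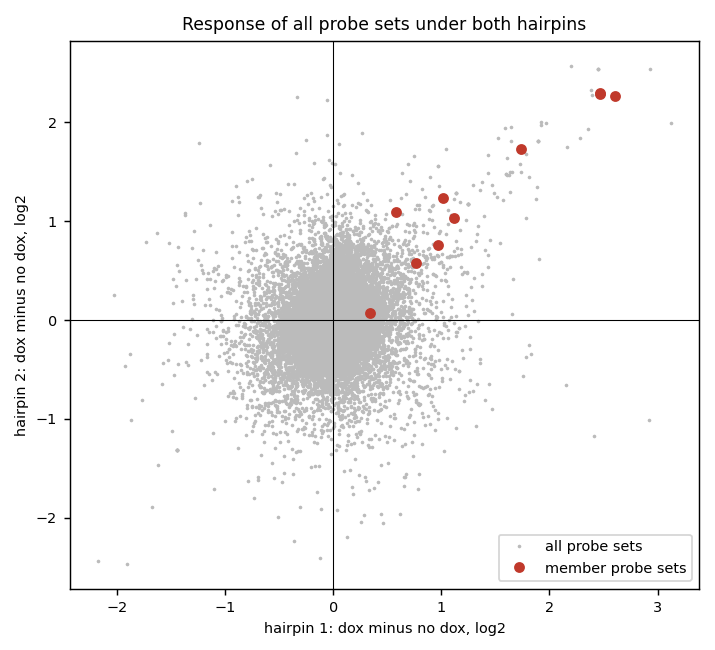
Log2 change under hairpin 2 against that under hairpin 1 for all 35556 probe sets, with the 10 sets marked. All 10 lie in the quadrant where both changes are above 0, and the 3 Zscan4 sets lie near the upper right corner.

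Other genes of the 2-cell-like state were taken from a list of 36 genes, of which 23 had a probe set (34 sets, after 3 identical ones were left out). Of these sets, 1 rose, 0 fell and 33 did not pass, where 0.104% of all probe sets rose, and the median log2 change was 0.23. In 19 of the 34 both induced hairpin arrays lay above the other 4, a pattern that 9.1% of all probe sets showed. Past 1.5-fold higher with dox were 10 sets under hairpin 1, 6 under hairpin 2 and 0 under the scrambled hairpin. Of all probe sets, 1.94%, 2.81% and 2.93% were so, in that order. Several of the sets share copies, and the list was chosen with earlier results of these data known.

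The set that rose, shared by Gm4027 and BB287469, had log2 levels of 6.23 and 6.25 in the induced hairpin arrays, against 4.31 and 4.25 in the uninduced ones, and 4.36 with dox against 4.20 without dox under the scrambled hairpin. Its change was 1.96 (SE 0.09, limma adjusted p = 0.0219). Both induced arrays stood apart from the other 4.

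A set shared by Gm4340, Gm6763, Gm21312 and others had 8.74 and 9.06 in the induced hairpin 1 and 2 arrays, against 5.81 and 6.52 in the uninduced ones, and 6.09 with dox against 6.50 without dox under the scrambled hairpin. It was 2.73 higher (SE 0.26, limma adjusted p = 0.116). Gm5662 had 7.88 and 7.88 in the induced arrays, against 4.76 and 5.89 in the uninduced ones, and 4.42 with dox against 4.76 without dox under the scrambled hairpin, and was 2.56 higher (SE 0.38, limma adjusted p = 0.268). In both sets the uninduced hairpin arrays were farther apart than in the set that rose.

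Smaller differences were found in a further set of those Gm copies (0.80), Usp17lc (0.65), the set of Sp110 with Gm15753 (0.62) and Usp17lb (0.60), none of which passed. The 3 sets that name Dux, listed as Duxf3, are shared with Gm9919 and had changes of -0.02, -0.03 and -0.01 and the 2 sets of Calcoco2 were at -0.38 and -0.25. These 2 genes were named after their values were seen. The list was uneven, with its largest differences in a few sets.

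Genes of the complexes and factors that are known to restrain or start the state were looked at next, as 41 of 44 listed genes with 55 probe sets. None of them passed, in either direction, and the median log2 change was -0.05. The strongest were Dppa4 at -0.45, Tbx3 at 0.45, E2f6 at 0.33, Dppa2 at -0.32, Hdac2 at 0.29 and Mga at -0.29 (limma adjusted p between 0.383 and 0.778). Dppa4 was lower with dox under the scrambled hairpin too, at -0.33, which left a difference of -0.12, and its second set was at -0.28 under the Pcgf6 hairpins and -0.42 under the scrambled hairpin. The Dppa2 value came from hairpin 2, at -0.63, with -0.003 under hairpin 1, and the scrambled line was at -0.23. Dppa2 and Dppa4 are known to act upstream of Dux, and E2f6 and Mga are partners of Pcgf6 in PRC1.6. Both induced hairpin arrays lay above the other 4 in 2 of the 55 sets, where 9.1% of all probe sets showed that pattern.

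**Figure D4:**
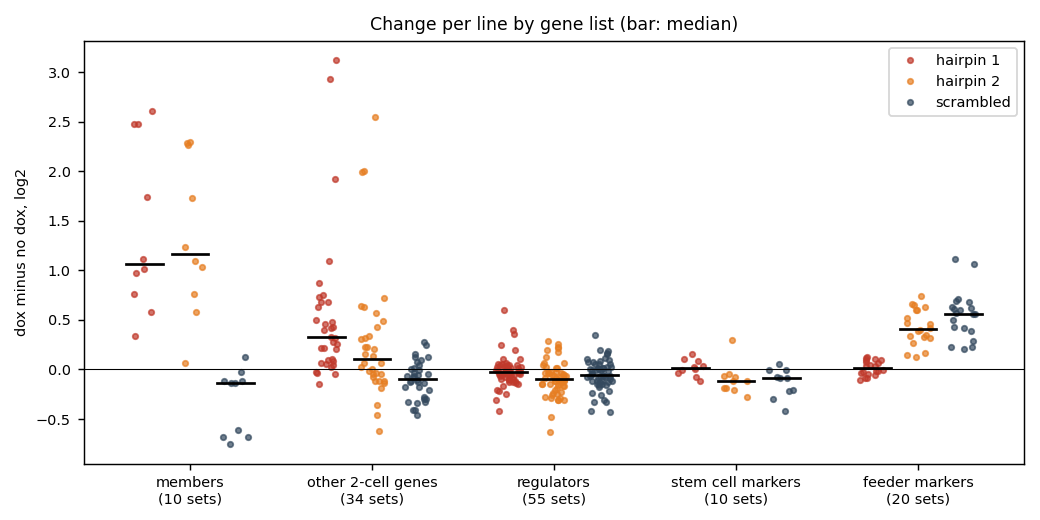
Log2 change, dox minus no dox, of the probe sets of each gene list in the hairpin 1, hairpin 2 and scrambled lines, with the median of each list. The 10 sets described here (members on the axis) have medians of 1.06, 1.17 and -0.14, and the feeder list has 0.01, 0.41 and 0.56.

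Of the 20 sets of a fibroblast list, which marks feeder cells, 0 passed the test of induced against uninduced hairpins (limma adjusted p between 0.722 and 0.97). Read line by line, as differences of 2 arrays with no test, they had median changes of 0.01 under hairpin 1, 0.41 under hairpin 2 and 0.56 under the scrambled hairpin. They were higher with dox in 10 of 20, 20 of 20 and 20 of 20 sets. Their mean levels were 10.34 with dox against 10.32 without it under hairpin 1, 10.59 against 10.16 under hairpin 2 and 10.04 against 9.49 under the scrambled hairpin. The mean Zscan4 changes in the same lines were 2.52 under hairpin 1, 2.28 under hairpin 2 and -0.70 under the scrambled hairpin. The part of feeder RNA in these changes was not tested. Primitive endoderm markers, 11 sets, had a median change of 0.18 and 0 calls.

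A list of 10 germ-cell genes had a median change of 1.83 and 7 sets that rose, where 0.104% of all probe sets rose. Dazl (0.94), Sycp3 (0.42) and Stra8 (0.04) did not pass. Ddx4 had levels of 9.30 and 9.20 in the uninduced hairpin arrays and Mael 8.80 and 8.79, so these 2 genes were not silent before induction. The list was chosen with these values in view and is no independent evidence. Patterns over the 6 arrays were compared with that of Zscan4 for 18789 candidate sets that carry 1 symbol. Members and predicted, clone-named, RNA-only, olfactory and vomeronasal receptor genes were left out. Sets such as Gm5662 and that shared by Gm4340 and others were therefore not ranked. By the root mean square distance of values centred on their mean, the nearest 6 candidates were Tex11 (0.251), Rhox13 (0.298), Mael (0.331), Syce1 (0.431), Tex13b (0.460) and Slc25a31 (0.488). The median distance of the candidates was 1.36. Tex11, Syce1 and Mael have roles in meiosis or in silencing transposons in germ cells.

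Of these neighbours, Mael had log2 levels of 10.77 and 10.78 in the induced hairpin 1 and 2 arrays, against 8.80 and 8.79 in the uninduced ones, and 8.08 with dox against 8.74 without dox under the scrambled hairpin. Under the scrambled hairpin the changes of the 6 neighbours lay between -0.65 (Mael) and -0.18 (Slc25a31). All 6 arrays, the scrambled ones included, entered the choice of these neighbours, so their likeness to Zscan4 is a description.

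Genes beside the 10 on their chromosomes were read from the RefSeq order of GRCm38.p6. Of 33 measured genes that flank the Zscan4, Tdpoz, Usp17l, Zfp352, Tcstv and Tmem92 positions, up to 3 on each side, 0 passed, with a median change of 0.03. They ranged from -0.39 (Vmn1r71) to 0.76 (Crct1), and the smallest limma adjusted p was 0.61. A further 80 sets lay between the outermost copies of a family and gave 0 calls. Their median change was -0.04, with a range from -0.28 (Olfr656) to 1.18 (BC147527). Most of them lie in the wide Usp17l interval, which holds many olfactory receptor genes besides globin and Trim genes, so the median mainly describes that interval. AF067061 (0.36), in the Tcstv interval, is also in the list of other 2-cell-like state genes. The genes flanking Zscan4 and Usp17l, and many sets inside the Usp17l cluster, lay below the lower quartile on all 6 arrays. Small changes in them may have gone undetected.

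BC147527, which lies inside the Tcstv cluster and was named after its values were seen, had log2 levels of 6.29 and 6.82 in the induced hairpin 1 and 2 arrays, against 5.11 and 5.63 in the uninduced ones, and 5.24 with dox against 4.96 without dox under the scrambled hairpin. Both induced arrays lay above the other 4. It was 1.18 higher (SE 0.25, 2.27-fold), which did not pass (limma adjusted p = 0.463), with 1.17 under hairpin 1 and 1.19 under hairpin 2. This difference is larger than those of Usp17la, Zfp352 and Tmem92 given above.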

How the data were processed

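Biotin-labelled total RNA of 6 samples was measured on 6 arrays. The authors deposited log2 values made, per the submitters' processing notes, with RMA and Affymetrix Power Tools. RMA gives the probe intensities of all arrays 1 common distribution before they are summarized to probe sets. That step largely takes out any shift that most genes share. For versions, options and genome build, nothing is stated in the labels. The values were used without further scaling, and 0 value columns were left unmatched to a sample. Array medians lay between 7.02 and 7.08.

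Group means were fitted to the 6 arrays with limma 3.58.1 in R 4.3.3, with 2 residual and 2.79 prior degrees of freedom, over all 35556 probe sets. The contrasts were induced against uninduced Pcgf6 hairpins, its difference from the scrambled change, and uninduced hairpins against uninduced scrambled. Tests were two-sided, with Benjamini-Hochberg adjustment and a threshold of 0.05. The spread of the single scrambled arrays was taken from the hairpin groups. The fit was tested on simulated data. Genes were named from the platform annotation, in which 21789 sets had 1 symbol, 1621 several and 12146 none.

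The named genes were all members, Pcgf6, called genes and up to 6 others of each list, and the 6 candidate sets nearest to Zscan4 in pattern. Members and lists were chosen with earlier results of these data known. The hairpin number pairs the arrays, because both arrays of a pair carry the same hairpin by label; deviations of same-numbered arrays correlated at 0.085 across probe sets. Alternatives were scaling, filters on dim sets, sets with a symbol, 1 set per gene, the hairpin block, a feeder covariate and leaving out each array.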

Additional observations from a re-analysis of the deposited data

How the results depend on the processing

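Of the values of single probe sets under the alternatives, 276 kept their direction and their side of the threshold, 43 newly passed, 29 no longer passed and 0 changed direction. Only the 4 sets that passed in the main fit could lose a call, so all 29 fell on them. Most of the 276 were results that did not pass in the main fit, so that number does not measure how stable the calls were. Over all sets, 40 passed for induced against uninduced hairpins. The count was 17 without the dimmest 50% of sets, 92 among sets with a symbol, 0 with a feeder covariate and 0 with the replicate block. Of the 10 member sets, 4 passed in all sets, 7 among those with a symbol, 3 after quantile normalization, 0 with the feeder covariate and 0 with the replicate block. Leaving out 1 array gave 0 to 85 sets and 0 to 6 members, the higher values among sets with a symbol (83 without the induced hairpin 1 array). Combinations chosen after seeing the data gave, among sets with a symbol, 124 sets and 8 members with the replicate block, and 16 sets and 0 members with the feeder covariate. For the difference from the scrambled hairpin, 0 sets passed. The count was 2 without the dimmest 50%, 38 among sets with a symbol (5 members), 14 with 1 set per gene (2 members), 53 with a symbol and the replicate block (5 members), and 0 to 52 with 1 array left out (0 to 5 members), namely 13 and 47, among sets with a symbol, without the uninduced and the induced array of hairpin 1. For uninduced hairpins against scrambled, 0 passed, and 0 to 72 with 1 array left out, with 0 members throughout. Members past 1.5-fold numbered 5 (hairpin 1) and 5 (hairpin 2) without the dimmest 25%, 4 and 4 without the dimmest 50%, and 3 and 4 with 1 set per gene, since fewer of them were then measured. Without replicates of the scrambled arrays, and with 3 members below the lower quartile on all 6 arrays, small changes may have gone undetected.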
